A study of Mus musculus with 12 samples.

Results

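The genes described here are the clustered histone genes of the mouse, measured in total RNA of sorted tumour-infiltrating cells. They were taken as every row of the deposited table whose Ensembl identifier is, in the GENCODE vM21 annotation, a protein-coding gene with a symbol beginning Hist1h, Hist2h, Hist3h or Hist4h. This gave 67 genes of the 55401 rows, which are all 67 such genes of that annotation. By class they are 6 genes of the linker histone H1, 18 of H2A, 18 of H2B, 12 of H3 and 13 of H4. By position 54 lie in the Hist1 cluster on chromosome 13, 10 in Hist2 on chromosome 3, 2 in Hist3 on chromosome 11 and 1, Hist4h4, on chromosome 6.

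The cells were live CD45+ CD11c+ cells, sorted from B16-OVA tumours, a mouse melanoma line that carries ovalbumin, in wild-type mice. CD45 marks white blood cells. CD11c is an integrin chain found on dendritic cells, on macrophages and on some NK cells. There were 4 groups of 3 libraries. The combined group had 20 Gy of radiation on day 10 of tumour growth plus a fusion protein, of which 20 mcg was given on the day of radiation and a second dose of 10 mcg on day 14. The fusion protein group had the same 2 doses of the protein without radiation, the 20 Gy group had the radiation alone, and the untreated group had neither. Tumours of all groups were taken on day 17. No source used here says what the fusion protein is made of or how old the mice were. Whether the 3 samples of a group stem from 3 mice is not in the labels either, and the p-values below therefore measure a spread between samples that may in part be technical.

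Histones package DNA. H2A, H2B, H3 and H4 form the core particle around which DNA winds, and H1 sits on the linker between particles. Most clustered histone genes are switched on together while DNA is copied, and their messengers are destroyed when copying ends. Those messengers usually have no introns and no poly(A) tail, but end in a short stem-loop that the protein SLBP binds. The libraries here were made from total RNA with random priming, so that messengers without poly(A) could be read.

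The stem-loop was searched in the annotated 3' ends of the 67 genes, because it is what sets these messengers apart from the rest of the transcriptome. The pattern of 16 bases was found in 45 genes, starting 21 to 58 bases after the stop codon (median 31). Of the 22 genes without it, 15 have an annotation that stops fewer than 16 bases past the stop codon. The following sites are from genes that the results turn on, in the sense of the gene, with the stem-loop in capitals and positions on GRCm38 in the GENCODE vM21 annotation.
Hist1h1c (H1, chr13:23739507-23739532, plus strand): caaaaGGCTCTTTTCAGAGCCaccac
Hist1h2bm (H2B, chr13:21722501-21722526, plus strand): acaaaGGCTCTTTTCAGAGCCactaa
Hist1h2bb (H2B, chr13:23747198-23747223, plus strand): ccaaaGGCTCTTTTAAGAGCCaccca
Hist1h2be (H2B, chr13:23585526-23585551, minus strand): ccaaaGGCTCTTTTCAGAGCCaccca
Hist1h3b (H3, chr13:23752815-23752840, plus strand): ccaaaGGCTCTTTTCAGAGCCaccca
Hist1h4j (H4, chr13:21735432-21735457, plus strand): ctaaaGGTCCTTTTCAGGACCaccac
Hist2h4 (H4, chr3:96262934-96262959, minus strand): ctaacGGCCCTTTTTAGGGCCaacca

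The form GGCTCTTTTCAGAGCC was the most frequent, in 25 genes: 3 of H1, 10 of H2A, 7 of H2B and 5 of H3. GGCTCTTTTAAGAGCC was found in 6 genes of H1, H2B and H3. The 12 H4 genes with a match all carried another stem: 7 had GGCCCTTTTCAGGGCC, 2 had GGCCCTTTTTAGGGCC, 2 had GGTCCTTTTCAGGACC and 1 had GGCCCTTCTCAGGGCC. Of the 67 genes, 62 have a single exon in the annotation.

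Promoters of 61 members could be matched in RefSeq (GRCm38.p6), and 3 are shown because their genes stand for different behaviour in the results: Hist1h2bm and Hist1h4k, which rose with the fusion protein, and Hist1h1c, the gene with most reads, for which no change was called. Each run is the 250 bases before the annotated start, with motif matches in capitals.
Hist1h2bm (chr13:21721794-21722043, plus strand): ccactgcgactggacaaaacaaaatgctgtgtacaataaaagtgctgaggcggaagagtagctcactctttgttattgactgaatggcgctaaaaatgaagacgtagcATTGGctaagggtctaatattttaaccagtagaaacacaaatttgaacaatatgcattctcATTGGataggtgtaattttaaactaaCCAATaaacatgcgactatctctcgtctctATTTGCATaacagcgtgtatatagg
Hist1h4k (chr13:21750554-21750803, minus strand): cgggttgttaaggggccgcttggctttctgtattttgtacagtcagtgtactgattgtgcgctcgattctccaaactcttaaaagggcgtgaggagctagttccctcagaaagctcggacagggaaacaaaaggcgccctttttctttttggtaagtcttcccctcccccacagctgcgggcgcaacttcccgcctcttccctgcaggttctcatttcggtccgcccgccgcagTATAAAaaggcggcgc
Hist1h1c (chr13:23738557-23738806, plus strand): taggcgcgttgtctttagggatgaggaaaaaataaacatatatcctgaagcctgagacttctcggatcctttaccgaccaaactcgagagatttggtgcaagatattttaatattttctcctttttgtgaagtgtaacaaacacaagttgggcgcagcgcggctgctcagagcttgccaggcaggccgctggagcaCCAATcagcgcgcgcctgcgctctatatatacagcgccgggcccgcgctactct

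Motifs were counted on both strands of the RefSeq windows, which reach from 250 bases before to 50 bases after the start. CCAAT, the letters bound by the factor NF-Y, stood in 52 of 61 windows (85.2%), against 37.4% of all 32851 windows. It was present in all 5 H1, 18 H2A, 16 H2B and 10 H3 windows and in 3 of 12 H4 windows. TATAAA stood in 34 windows (55.7%, against 13.6% of all) and the octamer ATTTGCAT in 13 (21.3%, against 1.7%), 7 of them H2A and 6 H2B. Many H2A and H2B genes lie head to head, so that such a pair shares much of its window and the counts are not of separate stretches.

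The libraries held 14462032 to 23985496 reads in genes, and the clustered histone genes took 0.107% (untreated library 3) to 0.305% (fusion protein library 3) of them, or 20700 to 58469 reads. Of 1481 chemosensory receptor genes (olfactory, vomeronasal and trace-amine), taken here as mostly silent in these cells, 5.47% to 84.9% had a read. The share was greatest in 20 Gy libraries 1 and 2 and combined library 1. These genes were counted as a possible sign of unspliced or genomic material, and the source of their reads was not tested. The 8 dendritic cell markers, such as Itgax (which encodes CD11c), Flt3 and Zbtb46, reached 10 normalized counts in all 12 libraries. Markers of macrophages, NK cells and T cells also did. Fewer cells of a type and less RNA per cell cannot be told apart in these bulk samples.

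The linker genes Hist1h1c, Hist1h1d and Hist1h1e gave the most reads of all members. Hist1h1c had 7212, 7473 and 6092 normalized counts in combined libraries, 10069, 12238 and 9232 in fusion protein libraries, 6634, 7527 and 7071 in 20 Gy libraries and 11309, 9818 and 5903 in untreated libraries. Untreated library 3 was the lowest and fusion protein library 2 the highest. Per kilobase of annotated exon, and as a mean over 12 libraries, Hist1h1c stood at 5373 normalized counts, Hist1h2ak (H2A) at 4184, Hist1h1e at 2571, Hist1h2bn (H2B) at 2516, Hist1h1b (H1) at 2017 and Hist2h2ac (H2A) at 1962. The most abundant H3 and H4 genes per kilobase were Hist1h4d at 1221, Hist1h4k at 1036 and Hist1h3e at 979. These levels depend on how far the annotation runs: 13 genes are annotated to the stop codon only, whereas 26 run more than 50 bases past their stem-loop.

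At the other end, the testis genes Hist1h1t, Hist1h2aa and Hist1h2ba were near or at 0. Hist1h1t, the spermatocyte linker histone, ranged from 0 to 14.2 normalized counts. Hist1h2aa had 0 reads in all libraries and Hist1h2ba 7 reads in all. Of the 67 members, 60 reached a value of at least 10 in at least 3 libraries and were tested. The 7 others were Hist1h2aa and Hist2h3c1 with 0 reads, Hist1h2ao, Hist1h2ba, Hist1h2br, Hist1h4m and Hist2h2aa1 with 2 to 73 reads in all libraries together.

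Several members are near copies of each other. A median of 37.1% of the 100-base windows of a member's transcripts, which is the length of a read, also occur in another gene. All windows of Hist2h2aa1, Hist2h2aa2, Hist2h2bb, Hist2h3b and Hist2h3c1 do, and none of 6 members. No source used here says how the authors' counting treated reads that match several genes, so values of single members with much shared sequence are uncertain. Sums over a class also lack such reads if the counting left them out, so how far the sums are affected is not known.

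Core histone transcripts were higher in libraries with the fusion protein, whether or not radiation was given. Summed over the 61 core genes, they came to 20983, 18802 and 24165 normalized counts in combined libraries, 24109.5, 18971 and 39682.5 in fusion protein libraries, 10576, 14955 and 17803 in 20 Gy libraries and 15086, 15578 and 9782 in untreated libraries. All 6 sums with the fusion protein lay above all 6 without it. For the linker genes Hist1h1c, Hist1h1d and Hist1h1e the sum was 15951, 14104 and 13818 in combined libraries, 22464, 21855 and 20662 in fusion protein libraries, 14512.5, 16056 and 13171 in 20 Gy libraries, and 24301, 16687 and 10796 in untreated libraries. All 3 fusion protein sums lay above all combined and all 20 Gy sums, while untreated libraries held both the highest and the lowest value and overlapped each of the other groups. Core genes made up 55.5% ± 3.57 of all clustered histone transcripts in combined libraries, 51.6% ± 9.05 in fusion protein libraries, 46.2% ± 7.22 in 20 Gy libraries and 42.8% ± 5.42 in untreated libraries (SD, n = 3 each).

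**Figure D1:**
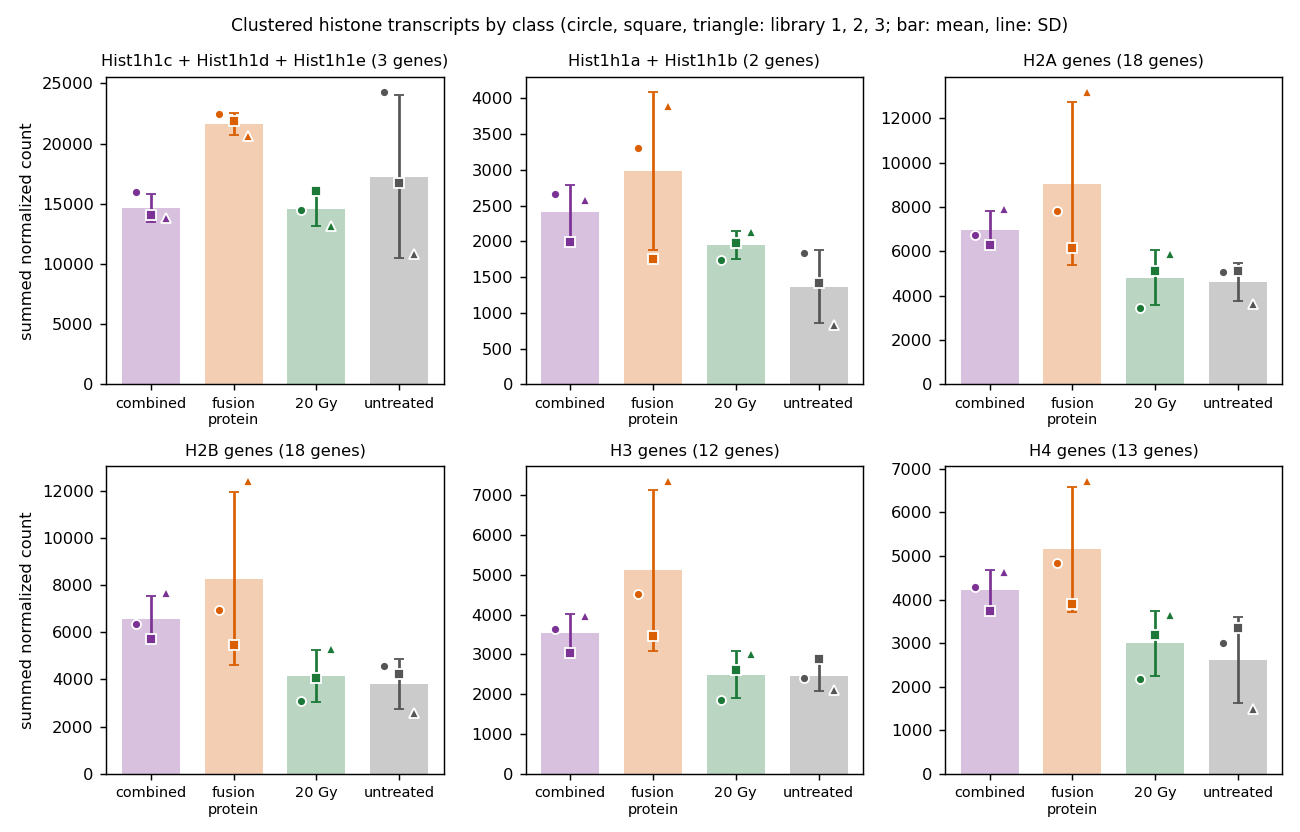
Summed normalized counts of the clustered histone genes by class, 1 panel per class, with points for the 3 libraries of each group, bars for the mean and lines for the SD. H2A, H2B, H3 and H4 sums are highest in fusion protein library 3, and in the panel of Hist1h1c, Hist1h1d and Hist1h1e the fusion protein libraries lie above the combined and 20 Gy libraries, with untreated libraries spread across all of them.

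The design asks what the fusion protein did over both radiation states, 6 libraries with it (combined and fusion protein) against 6 without it (20 Gy and untreated). A total of 7 of the 60 tested members rose past a limma adjusted p of 0.05 and 0 fell, where 2.07% of all 18274 genes were called higher. The 7 were the H4 genes Hist1h4k, Hist1h4j and Hist2h4, the H2B genes Hist1h2bm, Hist1h2be and Hist1h2bb, and the H3 gene Hist2h3b. In all, 56 of 60 members were higher (47.8% of all genes), and 40 had an unadjusted limma p under 0.05 in that direction (7.51% of all genes). Their median log2 difference was 0.77, against −0.02 over all genes tested, and over all 67 members it was 0.70. In 8 members all 6 values with the fusion protein lay above all 6 without it, which 1.86% of all tested genes showed.

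Hist1h4k (H4, chr13:21750194-21750505, minus strand) had 466, 363 and 421 normalized counts in combined libraries, 402, 401 and 580.1 in fusion protein libraries, 169, 204 and 289 in 20 Gy libraries and 174, 283 and 128 in untreated libraries. The lowest library with the protein lay above the highest without it. Its log2 difference was 1.12 ± 0.22 (SE; limma adjusted p = 0.0167), a 2.17-fold rise, with the promoter shown above that holds TATAAA and no CCAAT. Of its 100-base windows 64.3% are shared, many of them with other H4 genes.

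Hist1h2bm (H2B, chr13:21722044-21722567, plus strand) had 282, 293 and 425 normalized counts in combined libraries and 287, 189 and 580.1 in fusion protein libraries, against 87.1, 162 and 162 in 20 Gy libraries and 80.9, 129 and 112 in untreated libraries. Here too the 6 and 6 values did not overlap. The log2 difference of 1.44 ± 0.29 (limma adjusted p = 0.0185) was the greatest among the tested members, and 6.6% of its windows are shared.

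Hist2h3b (H3, chr3:96268654-96269141, plus strand) had 312, 331 and 399 normalized counts in combined libraries and 379, 361 and 821 in fusion protein libraries, against 113, 226 and 242 in 20 Gy libraries and 194, 145 and 137 in untreated libraries. The values with the protein were all higher, and the log2 difference was 1.26 ± 0.26 (limma adjusted p = 0.0215). All of its windows occur in transcripts of Hist2h3c1, Hist2h3c2 or the predicted genes Gm20628 and Gm20634, so a 100-base read of it cannot be told from theirs by sequence. Whether a predicted gene lies over the same place was not checked. The rise was seen in the row of Hist2h3b, and Hist2h3c1 had 0 reads. Hist2h3c2, whose own values were 1.73 to 12.9, had a log2 difference of −0.71 ± 0.48 (limma adjusted p = 0.579).

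Hist2h4 (H4, chr3:96261682-96263311, minus strand) shares no window with another gene. It had 266, 332 and 348 normalized counts in combined libraries and 338, 271 and 548 in fusion protein libraries, against 114, 149 and 213 in 20 Gy libraries and 205, 258 and 137 in untreated libraries. The lowest value with the protein, 266, lay just above the highest without it, 258, and the log2 difference was 0.98 ± 0.24 (limma adjusted p = 0.0485).

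Hist1h2be (H2B) averaged 1186 ± 121 normalized counts in combined libraries, 1446 ± 367 in fusion protein libraries, 608 ± 178 in 20 Gy libraries and 748 ± 282 in untreated libraries (SD, n = 3 each). Its log2 difference was 1.00 ± 0.23 (limma adjusted p = 0.0369) and its 6 values with the protein were all higher. Its annotated transcripts overlap Hist1h1e on the same strand, so its reads are uncertain. Hist1h4j (H4) averaged 157 ± 17.2 in combined, 149.99 ± 57.3 in fusion protein, 73.8 ± 4.84 in 20 Gy and 71.2 ± 24.9 in untreated libraries, and Hist1h2bb (H2B) averaged 914 ± 155 in combined, 1096 ± 562 in fusion protein, 465 ± 222 in 20 Gy and 378 ± 129 in untreated libraries. Their log2 differences were 1.06 ± 0.24 (limma adjusted p = 0.0337) and 1.28 ± 0.30 (0.0424), and fusion protein library 2 overlapped libraries without the protein in both.

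**Figure D2:**
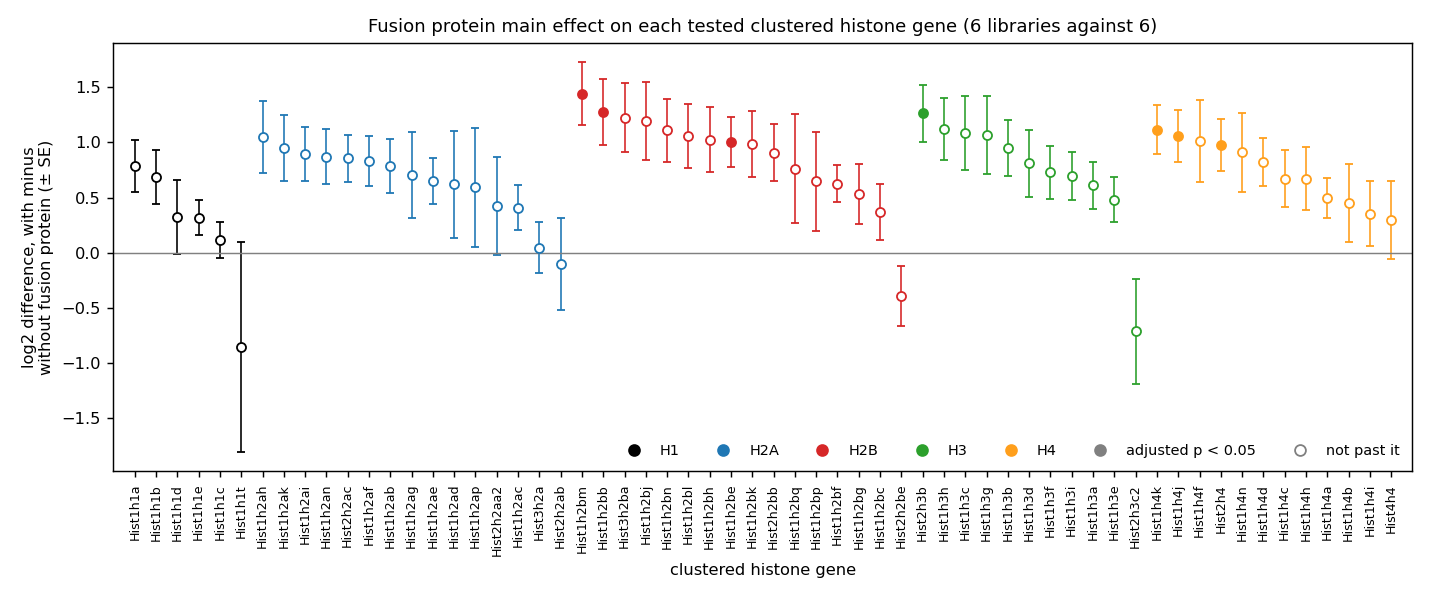
Log2 difference between the 6 libraries with and the 6 without the fusion protein for each of the 60 tested members (points, with SE), sorted within histone class. Filled points passed a limma adjusted p of 0.05: 3 of H2B, 1 of H3 and 3 of H4; 4 members lie below 0.

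With the library number as a block, 30 members passed in place of 7, where 6.15% of all genes were called higher: 1 of H1, 7 of H2A, 11 of H2B, 7 of H3 and 4 of H4. Same-numbered libraries deviated together more than others did between fusion protein and untreated, combined and untreated, and combined and fusion protein libraries. For number 2 this did not hold between 20 Gy and untreated libraries (r 0.156, against 0.351 with another number). Nor did it hold for number 2 between combined and 20 Gy libraries (0.00951, against 0.116).

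By class and without the block, the median log2 difference of the tested members was 1.00 in H2B (15 of 16 higher, 3 called), 0.81 in H3 (10 of 11, 1 called), 0.75 in H4 (12 of 12, 3 called), 0.70 in H2A (14 of 15, 0 called) and 0.32 in H1 (5 of 6, 0 called). Differences between the classes were not tested. The nearest to the threshold were Hist2h2ac (H2A), at 0.86 ± 0.22 with a limma adjusted p of 0.058, Hist3h2ba (H2B) at 1.23 ± 0.31 (0.0582) and Hist1h3h (H3) at 1.12 ± 0.28 (0.0596). In each of these the 6 and 6 values did not overlap. The most abundant core genes were likewise higher without passing this test: Hist1h2ak by 0.95 ± 0.30 (limma adjusted p = 0.131), Hist1h2bn by 1.11 ± 0.29 (0.0633), Hist1h4d by 0.82 ± 0.22 (0.0724) and Hist1h3b by 0.95 ± 0.26 (0.0768). With the block, limma adjusted p was 0.0132 for Hist1h2ak, 0.00295 for Hist1h2bn, 0.0287 for Hist1h4d and 0.0189 for Hist1h3b, and Hist2h2ac (0.021), Hist3h2ba (0.0284), Hist1h3h (0.0093) and the linker gene Hist1h1a (0.0361) passed as well. Smaller values were found for Hist1h4c at 0.67 ± 0.25 (0.229), Hist1h3f at 0.73 ± 0.24, Hist1h3e at 0.48 ± 0.20, Hist1h2bg at 0.53 ± 0.28 and Hist1h2ac at 0.41 ± 0.20, with overlap between libraries with and without the protein in all 5. Hist1h2bg had 887, 737 and 1012 normalized counts in combined, 1027, 715 and 1460.2 in fusion protein, 751, 784 and 738 in 20 Gy and 1071, 549 and 303 in untreated libraries.

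Hist1h1a, at 758 ± 115 normalized counts in combined, 967 ± 431 in fusion protein, 591 ± 138 in 20 Gy and 399 ± 102 in untreated libraries, had a log2 difference of 0.78 ± 0.24 (limma adjusted p = 0.115), and Hist1h1b one of 0.69 ± 0.24 (0.191). For Hist1h1c it was 0.12 ± 0.16 (95% interval −0.24 to 0.47, limma adjusted p = 0.847), for Hist1h1e 0.32 ± 0.16 (−0.03 to 0.66, 0.395) and for Hist1h1d 0.32 ± 0.34 (−0.42 to 1.06, 0.768). Differences between these genes were not tested.

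The members with values below 0 were few. Hist2h2be (H2B), which has no stem-loop match in an annotated 3' end of 2192 bases, had 69.2, 70.8 and 48.3 normalized counts in combined, 61.3, 52.7 and 31.9 in fusion protein, 101, 90 and 53.7 in 20 Gy and 80.1, 72.4 and 45.5 in untreated libraries. The groups overlapped, and its log2 difference was −0.39 ± 0.27 (limma adjusted p = 0.593). Hist2h2ab, Hist2h3c2 and Hist1h1t were the other 3, with limma adjusted p of 0.579 to 0.966. By the shape of the annotated 3' end, the medians were 0.91 over 11 tested genes annotated to the stop codon, 0.74 over 16 that end within 50 bases of the stem-loop, 0.65 over 25 that run further and 0.77 over 8 with no match. Over the 13 tested members with under 10% shared windows, 11 were higher and the median was 0.69.

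**Figure D3:**
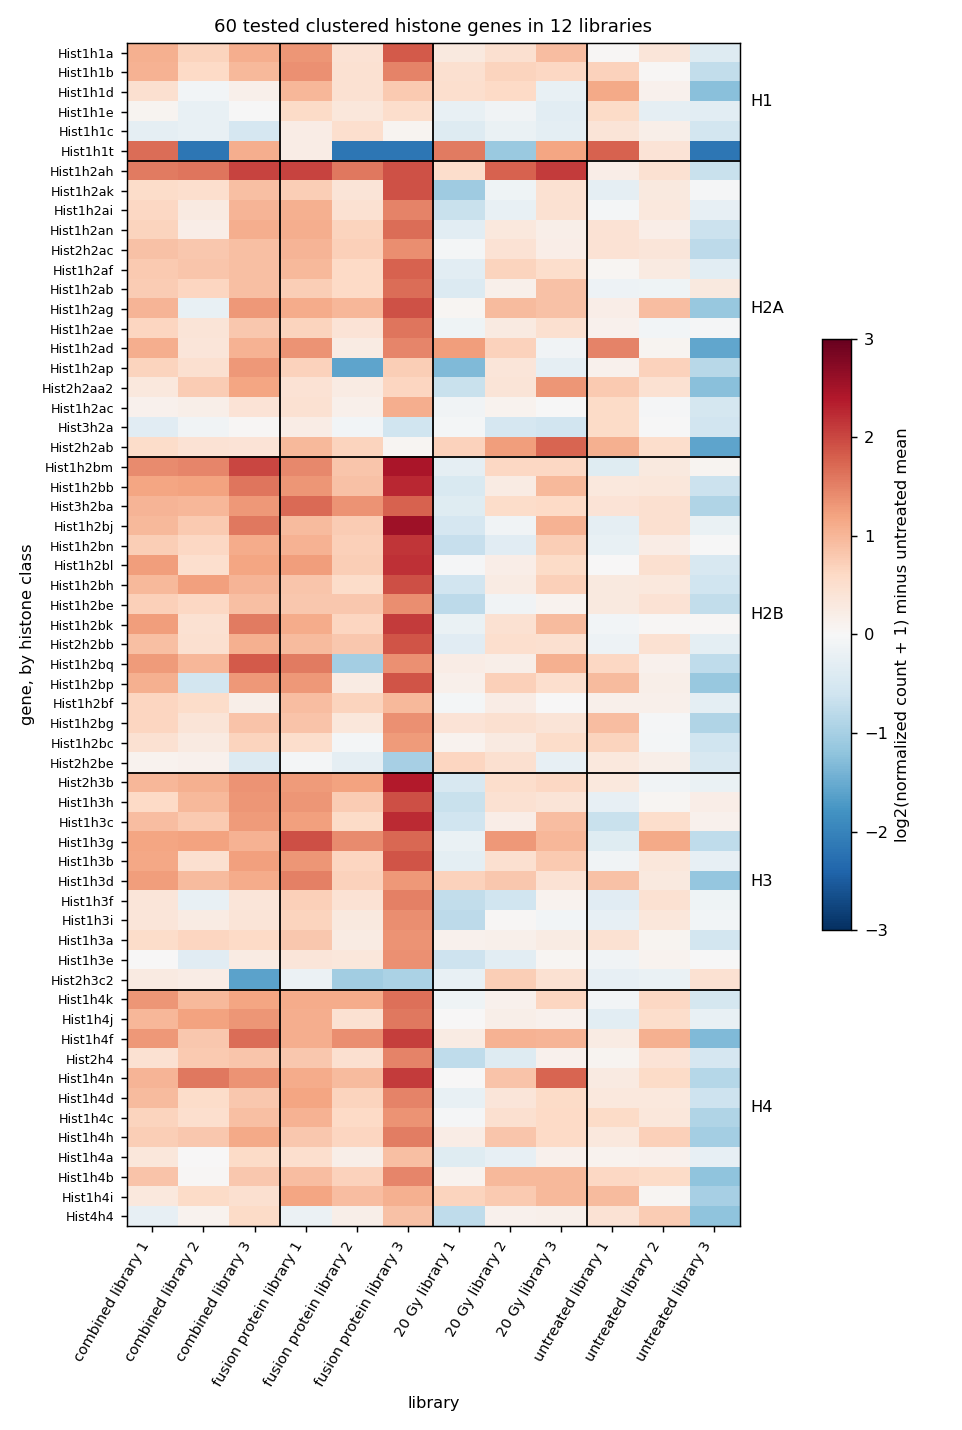
Each of the 60 tested members (rows, by class) in each of the 12 libraries (columns), as log2(normalized count + 1) minus the mean of the untreated libraries. Red is higher and blue is lower; the colour scale ends at −3 and 3. Fusion protein library 3 is red across most core genes and untreated library 3 is blue across most rows.

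Given without radiation, the fusion protein was set against no treatment. Between fusion protein and untreated libraries 55 of 60 members were higher, with a median log2 difference of 1.02 (−0.01 over all genes tested). None passed a limma adjusted p of 0.05, where 0.586% of all genes did in that direction, although 42 had an unadjusted p under 0.05, as did 4.81% of all genes on the higher side. DESeq2 called 15 (1.76% of all genes) and edgeR 0 (0.471%). In 35 members all 3 fusion protein values lay above all 3 untreated values, against 5.94% of all genes. The smallest limma adjusted p were 0.0863 for Hist2h3b (1.62 ± 0.36), 0.11 for Hist1h4k (1.29 ± 0.31) and 0.129 for Hist1h2ah (1.84 ± 0.46). Hist1h2ah, an H2A gene, had 71.9, 52.7 and 65.9 normalized counts in fusion protein libraries against 19.5, 23.7 and 10.3 in untreated libraries, with no overlap.

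With the library number as a block, 7 members passed in this comparison (2.28% of all genes passed higher): Hist2h3b (limma adjusted p = 0.0143), Hist1h2bm (0.0161), Hist1h2bn (0.0211), Hist1h2ab (0.023), Hist1h4k (0.036), Hist1h2bk (0.0482) and Hist1h3h (0.0497). Within numbers, the median member differed by 0.71, 0.27 and 2.11 on the log2 scale in libraries 1, 2 and 3. The value for number 3 sets the highest library of the series for these genes against the lowest, and without the 4 libraries numbered 3 the median was 0.52. Melanoma markers were highest in the libraries numbered 3 in each group. Their sum over 6 genes was 4358.5 in fusion protein library 3 and 1764 in untreated library 3. It was 149 to 152 in the other fusion protein libraries and 94.9 to 162.5 in the other untreated libraries. In 20 Gy library 3 it was 15154 and in combined library 3 it was 1233. The sum of B and plasma cell markers was lowest in the libraries numbered 3 in each group. It was 2345 in combined, 286 in fusion protein, 250 in 20 Gy and 218 in untreated library 3. The part of either list in the result was not tested.

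The addition of the fusion protein to radiation was read from combined against 20 Gy libraries, which share no library with the comparison above. Here 52 of 60 members were higher, with a median difference of 0.46 (−0.02 over all genes), and 0 were called by limma (0.843% of all genes were called higher), by edgeR (0.711%) or by DESeq2 (1.83%). An unadjusted limma p under 0.05 was found for 12, as for 4.41% of all genes on the higher side. Combined values lay wholly above 20 Gy values in 18 members (8.36% of all genes) and wholly below in 2, Hist1h4i and Hist2h2ab (9.55%). Hist1h2bm, at 282, 293 and 425 normalized counts in combined and 87.1, 162 and 162 in 20 Gy libraries, had the smallest p, with a log2 difference of 1.31 ± 0.41 (limma adjusted p = 0.244). Hist1h4j followed at 1.07 ± 0.33 (0.244) and Hist1h2be at 1.00 ± 0.32 (0.277).

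In 50 of the 60 members the difference was above 0 both for fusion protein against untreated and for combined against 20 Gy, or 83.3%, where 33.1% of all tested genes were higher in both. Over the members the 2 differences had a Pearson r of 0.53 (Spearman 0.47), and over all 18274 tested genes 0.51 (0.45). These are descriptions across genes, which are not independent of each other. In 51 members the difference was greater in the absence of radiation.

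**Figure D4:**
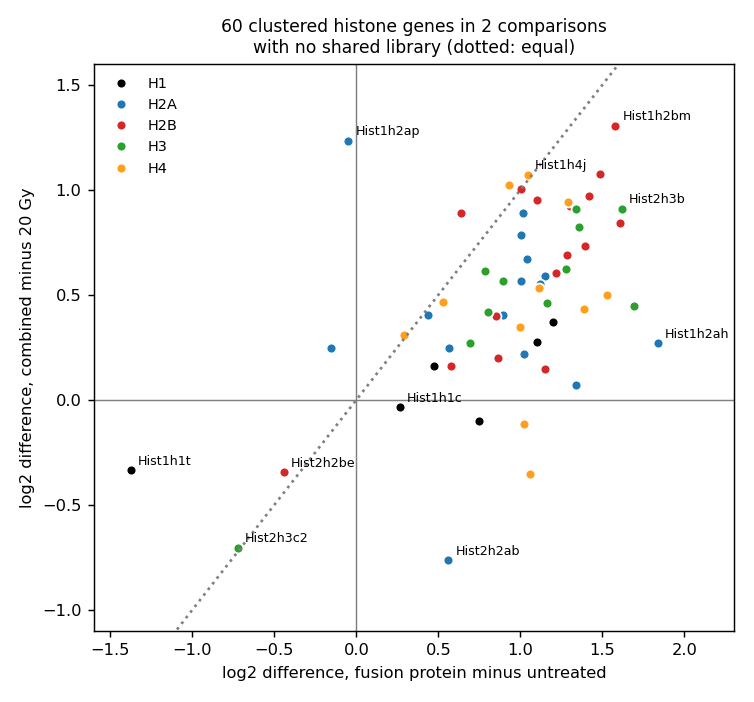
Log2 difference of each tested member for fusion protein minus untreated (horizontal) and for combined minus 20 Gy (vertical), coloured by class. Most points lie in the upper right and below the dotted line of equal differences; Hist1h1t, Hist2h3c2 and Hist2h2be are below 0 on both axes.

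Between combined and untreated libraries 54 of 60 members were higher, with a median log2 difference of 0.76 (0.02 over all genes tested), and 31 lay wholly above the untreated values (10.3% of all genes). Limma called 0 (1.21% of all genes were called higher), edgeR 0 (0.919%) and DESeq2 4 (3.02%). An unadjusted limma p under 0.05 was found for 26, as for 7.95% of all genes on the higher side. Hist1h2bm averaged 333 ± 79.4 normalized counts in combined and 107 ± 24.2 in untreated libraries (SD, n = 3 each), a log2 difference of 1.63 ± 0.41 (limma adjusted p = 0.0899, and 0.00839 with the library number as a block). The block called 6 members (5.24% of all genes): Hist1h2bm, Hist1h4k (0.0351), Hist1h2ah (0.0413), Hist2h3b (0.0467), Hist1h4j (0.0468) and Hist1h2ab (0.0472).

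No member could be called after radiation alone. Between 20 Gy and untreated libraries 45 of 60 were higher, the median difference being 0.24 (0.04 over all genes tested). Limma and edgeR called 0, as of all genes (0%), DESeq2 0 (0.224% of all genes higher) and the block 0 (0.312%). On the higher side 1 member had an unadjusted limma p under 0.05, as did 4.82% of all genes. In 1 tested member, Hist1h2ah, all 3 values after 20 Gy (24.6, 60 and 75.9 normalized counts) lay above the untreated ones (19.5, 23.7 and 10.3), against 6.73% of all genes. Its log2 difference was 1.46 ± 0.46 with a limma adjusted p of 0.706. Hist2h2ab (H2A, 1.23 ± 0.60) and Hist1h4i (H4, 0.81 ± 0.42) followed, both at 0.722. Within numbers the median member differed by −0.40, 0.07 and 1.01 in libraries 1, 2 and 3, so the direction was not the same in each. Without the libraries numbered 3 the median was −0.13.

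Adding radiation to the fusion protein, as combined against fusion protein libraries show, gave lower values in 51 of 60 members, with a median log2 difference of −0.26 (0.03 over all genes tested). None was called by limma (0% of all genes), edgeR, DESeq2 or the block, and 3 had an unadjusted p under 0.05: Hist1h1c at −0.60 ± 0.23, Hist1h3e at −0.72 ± 0.29 and Hist1h1e at −0.52 ± 0.22. Of all 18274 genes 534 had such a p in either direction, with 1.92% of all genes on the higher side. All 3 combined values were below all 3 fusion protein values in 8 members (3.81% of all genes), among them both linker genes. Hist1h1e had 4882, 4011 and 4641 normalized counts in combined libraries and 6868, 5840.1 and 6701 in fusion protein libraries. The difference between the 2 fusion protein effects, with and without radiation, had a median of −0.44 and 51 members below 0, with 0 members called by limma or edgeR (0% of all genes) or by DESeq2, which called 1 gene of all (0.00547%). An unadjusted p under 0.05 was found for 2 members, Hist1h4i at −1.42 ± 0.59 and Hist1h2ah at −1.57 ± 0.65, and Hist1h3g (H3) followed at −1.25 ± 0.71. Here 188 of all 18274 genes had such a p in either direction, with 0.241% of all genes on the higher side. Without the libraries numbered 3 this median was 0.018.

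Genes that work with the clustered histones were described from 5 lists. Of 29 DNA replication genes all 29 were higher with the fusion protein over both radiation states, with a median of 0.55, and 5 rose: Cdc45 (0.93 ± 0.16, limma adjusted p = 0.00825) and Mcm10 (1.15 ± 0.21, 0.0128), parts of the machinery that opens DNA, the polymerase subunit Pole (0.62 ± 0.14, 0.0335), the checkpoint mediator Clspn (0.88 ± 0.20, 0.038) and the clamp loader subunit Rfc3 (0.74 ± 0.18, 0.0452). Of 18 mitosis genes all 18 were higher, with a median of 0.70, and 3 rose: the motor Cenpe (0.99 ± 0.19, 0.0135), the spindle factor Tpx2 (1.16 ± 0.24, 0.0241) and the kinase Plk1 (0.82 ± 0.19, 0.0407). The median over all genes tested was −0.02. Of all genes 47.8% were higher and 2.07% were called higher. With the library number as a block, 20 of the 29 and 12 of the 18 passed (6.15% of all genes). The members' median was 0.77, and differences between lists were not tested. Without radiation, fusion protein against untreated, all 29 DNA replication genes were higher (median 0.63, 0 called) and all 18 mitosis genes (1.05, Cenpe called). Of all genes 0.586% were called higher there. For combined against 20 Gy 28 of 29 and 17 of 18 were higher, with medians of 0.51 and 0.31 and 0 called (0.843% of all genes). For 20 Gy against untreated it was 16 of 29 (0.07) and 18 of 18 (0.45), again with 0 called (0% of all genes).

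Of 25 genes for making and degrading histone messengers, 21 were higher with a median of 0.12, and 1 rose (2.07% of all genes). It was Ccne1, the cyclin that starts S phase and with CDK2 activates histone transcription, at 0.99 ± 0.22 (limma adjusted p = 0.0366). With the block 3 of the 25 passed (6.15% of all genes). Ccne1 had 209, 221 and 269 normalized counts in combined libraries and 185, 169 and 323 in fusion protein libraries, against 85.4, 110.4 and 148 in 20 Gy libraries and 88.4, 111 and 147 in untreated libraries, with no overlap. Slbp, the stem-loop binding protein, averaged 1567 ± 239 in combined, 1790.0 ± 483 in fusion protein, 1143 ± 380.3 in 20 Gy and 1359 ± 441 in untreated libraries (SD, n = 3 each), and its log2 difference of 0.45 ± 0.21 was not called (0.345). Npat, the coactivator of clustered histone genes, had a difference of 0.07 ± 0.18 (0.942).

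The replacement histones, whose genes lie outside the clusters and are for the most part transcribed through the cell cycle, were described next. With the fusion protein 3 of 10 tested genes were higher, with a median of −0.06 and 0 called. The block called 1 higher (6.15% of all genes) and 1 lower (4.74% of all genes). H3f3b, which encodes H3.3, had a log2 difference of 0.18 ± 0.21 (limma adjusted p = 0.793), H2afx 0.54 ± 0.27 (0.393), H3f3a, a second H3.3 gene, −0.32 ± 0.15 (0.348) and H1f0, the linker histone of resting cells, −0.56 ± 0.20 (0.183). Of 19 chaperones and import factors, 13 were higher with a median of 0.08. With the block 4 passed (6.15% of all genes), and without it 1 rose (2.07% of all genes). The gene that rose without the block was Daxx, a chaperone of H3.3. It had 5706, 4759.8 and 7608 normalized counts in combined and 4527, 3626 and 6327 in fusion protein libraries. In 20 Gy libraries it had 875, 1044 and 1797 and in untreated libraries 1023, 1390.4 and 1456. Its log2 difference was 2.10 ± 0.21 (limma adjusted p = 0.000234). Asf1b and Chaf1a, chaperones that deliver new H3 and H4 behind the replication fork, were at 0.68 ± 0.19 (0.0922) and 0.58 ± 0.17 (0.112).

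**Figure D5:**
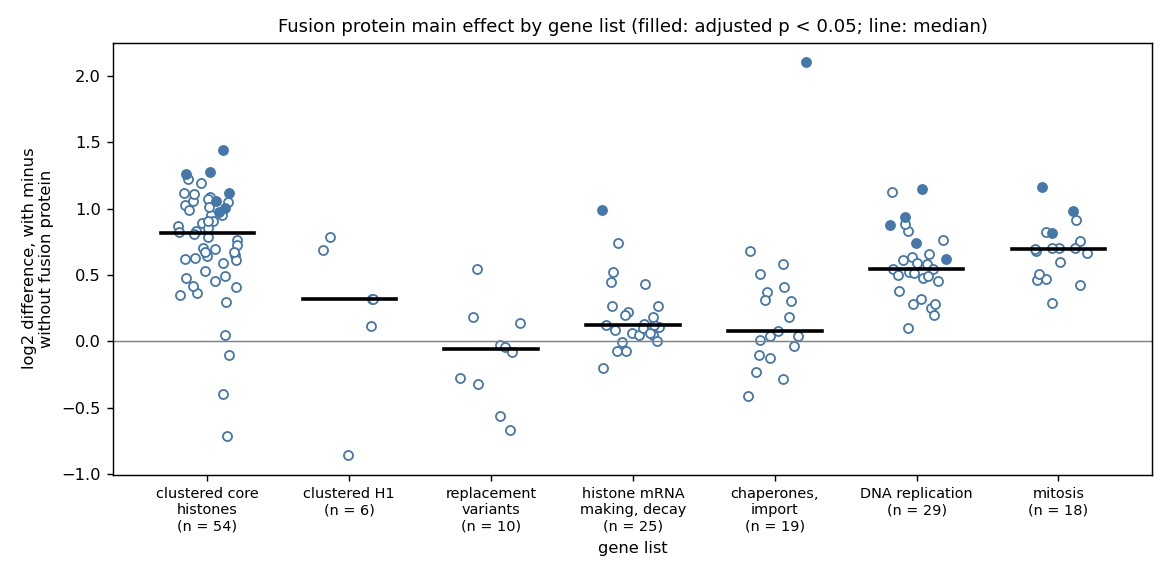
Log2 difference between libraries with and without the fusion protein for the tested members, split into core and H1 genes, and for the 5 lists of related genes. Points are genes, filled where the limma adjusted p is under 0.05, and bars are medians: 0.82 for clustered core genes, 0.32 for clustered H1, −0.06 for replacement variants, 0.55 for DNA replication and 0.70 for mitosis.

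Markers of cell types moved with the fusion protein too. The sum of the 5 NK cell markers was 26368 to 28433 normalized counts in combined and 22691 to 49922 in fusion protein libraries, against 8848 to 12119 in 20 Gy and 14514 to 16175 in untreated libraries, with none of the 5 at 0 in any library. All 5 were higher with the protein over both radiation states and 1, Gzma, passed limma. Of all genes 47.8% were higher and 2.07% were called higher. The sum followed Gzma in large part. Gzma gave 18577 of a mean sum of 27678 in combined and 23212 of 35437 in fusion protein libraries. In 20 Gy libraries it gave 4251 of 10007, and in untreated libraries 5908 of 15347. The other log2 differences ran from 0.24 (Klrd1) to 0.76 (Klrb1c), and Eomes averaged less in combined (2269) than in untreated libraries (3260). The sum of the 8 dendritic cell markers was 25628 to 33950.5 in combined and 12994 to 29112 in fusion protein libraries. It was 56537 to 70674 in 20 Gy and 33551 to 64810.5 in untreated libraries. All 8 were lower over both states and 5 were called lower, where 1.23% of all genes were called lower. H2-Ab1 gave most of the dendritic cell sum, with means of 20219 in combined, 15302 in fusion protein, 44606 in 20 Gy and 32660 in untreated libraries. The part of the NK cell and dendritic cell markers in the histone differences was not tested. The T cell sum overlapped between all groups, at 3333 to 10684 in combined, 4626 to 16816.5 in fusion protein, 2848 to 7483 in 20 Gy and 4318 to 18180.1 in untreated libraries. Of the 6 macrophage markers 5 were lower and 1 was called lower (1.23% of all genes). Of the 5 plasmacytoid markers 3 were lower and 2 were called higher (2.07% of all genes). No marker of B and plasma cells, neutrophils, red cells or melanoma was called, and several of the last 3 lists were listed at 0 in some libraries, among them S100a8, Hba-a1 and Mlana.

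The number of members called for the fusion protein over both radiation states moved with single libraries. It was 7 with all libraries, 4 without the libraries numbered 3, of which Hist1h4k and Hist1h2bb are among the 7 and Hist1h2ab and Hist1h2bn are not, 15 without fusion protein library 2, 10 without 20 Gy library 3, 1 without 20 Gy library 1 and 0 without combined library 3. Leaving out each of the 12 libraries in turn, Hist1h2bm passed 10 times, Hist2h3b in 9 and Hist1h4k in 8, and the 4 others in 2 to 5. With all libraries 2.07% of all genes were called higher. This share was not counted for the fits with libraries left out, so whether the shifts are particular to the members is not known.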

How the data were processed

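RNA of sorted CD45+ CD11c+ cells was measured in 12 libraries, 3 in each of 4 groups. Per the submitters' processing notes the authors used FastQC, Trimmomatic, STAR with the mouse build mm10, featureCounts and DESeq2; no source used here gives versions or settings. Per the labels' protocols the libraries were made with a SMARTer stranded total RNA kit and read as pairs of 100 bases. The deposited signal values are counts that the authors normalized with DESeq2, by dividing reads by a size factor per library. Multiplying by that factor gave whole reads, within 0.001, for 100% of values.

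Symbols came from GENCODE vM21 for 55141 of 55401 identifiers (99.53%). A gene was tested where 3 or more libraries had a value of 10 or more, which left 18274. Log2(value + 1) was fitted with limma 3.58.1 in R 4.3.3, in 1 model of all 12 samples and 4 groups with the variance trend (8 residual and 3.313 prior degrees of freedom). All p-values are two-sided, with Benjamini-Hochberg adjustment over the 18274 genes and a threshold of 0.05. Fold changes are on that log2 scale, which understates low genes; ± is the SE of a difference and the SD of a mean. The steps were tested on simulated data. Alternatives were pseudocount 5, no filter, edgeR 4.0.16, DESeq2 1.42.0, TMM scaling, a block, the receptor gene level as covariate and libraries left out.

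The members, the lists of related genes and markers, and the rule for named genes were chosen with earlier results of these data known. Named were members past the threshold (or the 3 of smallest p), the 3 most abundant members of each class, the testis members and, of each list, called genes or the 2 of smallest p; others, such as Hist2h2be, Rfc3, Slbp, Npat, H3f3b, H2afx, Asf1b, Chaf1a and the genes nearest the threshold, were chosen after their values were seen. Zcchc6 and Zcchc11 were matched as Tut7 and Tut4.

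The same library number in different groups gave residuals that correlated at 0.473 to 0.621 (fusion protein and untreated), 0.156 to 0.496 (20 Gy and untreated), 0.334 to 0.389 (combined and untreated), 0.41 to 0.484 (combined and fusion protein) and 0.00951 to 0.505 (combined and 20 Gy). The lowest values for 20 Gy and untreated and for combined and 20 Gy, both for number 2, lay below the largest with another number (0.351 and 0.116). The main fit used no block, so its tests ignore any pairing. The block on the number was run as an alternative in every comparison. What the number marks is not in the labels.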

Additional observations from a re-analysis of the deposited data

How the results depend on the processing

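Signs under the alternatives were checked for the called members and for called genes of the lists of related genes, at most 4 per list. No difference of these that had passed its test changed sign. Rfc3 and the cell type markers were not part of this check. Without the libraries numbered 3, 2 medians over the members, neither with a test, changed sign. That of 20 Gy against untreated was −0.13 (0.24 with all), and that of the difference between the fusion protein effects was 0.018 (−0.44 with all). The block on the replicate number raised the members called to 7 (fusion protein against untreated), 6 (combined against untreated), 1 (combined against 20 Gy, Hist1h2bm, with 2.82% of all genes called higher) and 30 (fusion protein over both radiation states, 6.15% of all genes, including all 7 of the unblocked fit). Between combined and 20 Gy and between 20 Gy and untreated libraries, not every same-numbered pair correlated more than pairs of other numbers. DESeq2 on the recovered reads called 15, 4 and 28 members for fusion protein against untreated, combined against untreated and the fusion protein over both states (4.09% of all genes). Without the libraries numbered 3, limma called 4 members over both states, 2 of them among the 7, and the median for fusion protein against untreated was 0.52; the cause was not tested. Over both states, pseudocount 5 and TMM scaling called the same 7, and edgeR (1.99% of all genes called higher), no filter and the receptor covariate each called 5 of them. The share of all genes was not counted for pseudocount 5, TMM scaling, no filter, the covariate or the fits with libraries left out.

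Leaving out 1 library at a time gave 0 to 1 called members for fusion protein against untreated, 0 to 1 for combined against untreated, 0 to 15 for the fusion protein over both states and 0 in the other 4 comparisons. The medians then ranged over 0.74 to 1.30 (fusion protein against untreated), −0.03 to 0.45 (20 Gy against untreated), 0.45 to 0.92 (combined against untreated), 0.32 to 0.64 (combined against 20 Gy), −0.51 to −0.01 (combined against fusion protein), 0.61 to 0.93 (fusion protein over both states) and −0.72 to −0.18 (difference of the effects). The 20700 to 58469 reads per library in these genes limit the precision of members with few reads; how much depth and the spread between libraries each limit the calls was not tested.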

Other observations

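Rows of 3 clustered histone pseudogenes were outside the members. Hist3h2bb-ps, a processed pseudogene, had 45.8, 30.7 and 32.8 normalized counts in combined libraries, 23.3, 40.5 and 78 in fusion protein libraries, 37.8, 18.2 and 22.2 in 20 Gy libraries and 20.2, 61.2 and 5.17 in untreated libraries. Hist1h2aj ranged from 0 to 27.9 and Hist1h2al from 0 to 7.5 over the 12 libraries.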
